A study of Mus musculus with 12 samples.

Results

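Follicular helper T cells (Tfh) sorted by the strength of a Venus reporter of S1pr2 were compared as Venus-high against Venus-low cells, in 3 pairs of arrays formed by replicate number. The pairs used 6 of the 12 arrays of the series, 3 of Venus-high and 3 of Venus-low Tfh. Both groups were CD4+ CXCR5+ PD1-high CD44-high Dump- lymph node cells, and only the Venus gate differed. The mice of both groups were S1pr2V/+, heterozygous for the reporter allele, and had been immunized under the skin 10 days earlier with CGG (chicken gamma globulin) in CFA (complete Freund's adjuvant). Each array held the pooled cells of several mice, 4, 6 and 4 for replicates 1, 2 and 3 of Venus-high Tfh and the same numbers for Venus-low Tfh. The labels do not say whether equal numbers came from the same mice, so p-values measure the spread between these samples, which may be technical. Of the remaining arrays, 2 were PD1-intermediate CXCR5+ T helper (Th) cells and 2 were PD1-low CXCR5-low Th cells from lymph nodes of such mice. Another 2 were naive CD4+ T cells from spleen, for which the labels name immunized mice and the design text also mentions control mice. These 6 arrays give levels here, and besides they entered the filter on low values, the choice of probe sets and alternative fits.

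Tfh cells help B cells in the follicles of lymph nodes, and those inside germinal centres are held there by guidance receptors. S1PR2, a receptor of the blood and lymph lipid sphingosine-1-phosphate, couples to the G protein subunit encoded by Gna13 and restrains migration, while S1PR1 draws lymphocytes out of the tissue and CCR7 draws them to the T zone. Regulatory T cells that share the Tfh surface markers, called follicular regulatory T cells, express Foxp3 and can fall within the same gate.

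Levels are deposited log2 signals, and a difference is the Venus-high minus the Venus-low value in log2 units with its SE, so 1 unit is a doubling of signal. After filtering, 9893 genes were measured, each by 1 probe set. By their quantiles the 12 arrays fell into 3 sets that the labels do not name, with 75% quantiles between 8.50 and 9.42, and each set held exactly 1 pair. In the set of pair 2, 3315 probe sets were shifted by more than 3 log2 units against both other sets, as were 542 and 234 in the sets of pairs 1 and 3. Only those shifted in the set of pair 2 are called displaced probe sets below, and they measured 507 of the genes tested. Genes measured by probe sets shifted in the sets of pairs 1 and 3 were not flagged. Over these 507 genes the pair 2 differences correlated across genes by 0.168 and 0.161 with those of pairs 1 and 3, while pairs 1 and 3 correlated by 0.754. Over the other 9386 genes the 3 correlations were 0.707, 0.738 and 0.772, and genes are not independent replicates. A difference within a pair is free of an offset common to both arrays of a set, and the paired fit in limma rests on these differences.

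S1pr2 was the gene of the sort, so its own difference checks the labels and is no finding. Its level was 13.09, 12.58 and 12.99 in Venus-high Tfh, against 10.68, 9.86 and 10.21 in Venus-low Tfh, and the groups did not overlap. The difference was 2.64 ± 0.12, with 2.41, 2.72 and 2.78 in pairs 1, 2 and 3. The genes of the other sort markers did not pass the test. Cxcr5 differed by 0.73 ± 0.16 (limma, adjusted p = 0.0721), Pdcd1 by 0.70 ± 0.15 (adjusted p = 0.067), Cd44 by -0.08 ± 0.15 (adjusted p = 0.723) and Cd4 by 0.00 ± 0.09 (adjusted p = 0.979). Cxcr5 and Pdcd1 were nonetheless higher in Venus-high Tfh in all 3 pairs. T cell identity genes were at like levels, with Cd3e at 14.51, 14.15 and 14.12 in Venus-high Tfh and 14.47, 14.09 and 14.10 in Venus-low Tfh. Of the 13 measured in that list 1 passed (7.69%, beside 10.1% of all genes tested). It was Thy1, a surface protein of T cells, which fell by 1.24 ± 0.12 (adjusted p = 0.024).

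With the pair as a block, limma called 1001 genes at an adjusted p under 0.05 (10.1% of those tested), 402 higher (4.06%) and 599 lower (6.05%) in Venus-high Tfh. Every one of the 1001 had the same sign in all 3 pairs, as had 2703 (27.3%) and 2731 (27.6%) of all genes in the higher and lower direction whatever the size. Changes of at least 1 log2 unit in every pair are called moved below. They numbered 511 (5.17%), 162 higher (1.64%) and 349 lower (3.53%), and 457 of them also passed the test. The arrays of the groups did not overlap for 1075 genes (10.9%), with the Venus-high arrays all above for 538 (5.44%) and all below for 537 (5.43%). Displaced probe sets measured 15 of the 1001 called and 8 of the 511 moved genes. The median difference of all genes was 0.02. In these bulk samples, fewer cells of a type and less RNA per cell cannot be told apart. The calls rest on all 3 pairs: limma called 63 genes without replicate 1, 0 without replicate 2 and 0 without replicate 3, where 2292 and 2076 genes had an unadjusted p under 0.05. Without the pair as a block it called 4.

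Most genes with the largest rises lay near the lower end of the signal scale in Venus-low Tfh. Apoe, the apolipoprotein of lipid transport, was at 7.26, 8.66 and 11.56 in Venus-high Tfh, against 2.10, 2.15 and 2.07 in Venus-low Tfh. Apoc4, another apolipoprotein gene, was at 7.33, 7.67 and 10.94 in Venus-high Tfh, against 2.13, 2.13 and 2.10 in Venus-low Tfh. Neither gene overlapped between the groups, and both were highest on Venus-high array 3. Where all arrays of a group lay below log2 5, that level serves as a floor, and the mean of the other group against it gives a bound of the fold. By it Apoe was at least 17.9-fold higher (difference 7.06 ± 0.92, adjusted p = 0.0319) and Apoc4 at least 12.5-fold higher (6.53 ± 0.83, adjusted p = 0.0313). Apoc1 and Apoc2, the other apolipoprotein genes of that gene cluster, did not pass the filter on low values. Apoc2 reached 8.89 on Venus-high array 3 and stayed at or below 2.97 on every other array, and Apoc1 stayed at or below 4.43.

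Il13ra1, a receptor chain for interleukin 13 and interleukin 4, was at 7.82, 8.42 and 10.15 in Venus-high Tfh, against 2.56, 2.38 and 4.97 in Venus-low Tfh. All 3 Venus-high arrays were above all Venus-low arrays, and by the group mean Il13ra1 was at least 13.9-fold higher (5.50 ± 0.21, adjusted p = 0.0148). Mcf2l, a guanine nucleotide exchange factor gene, was at 8.34, 7.13 and 9.23 in Venus-high Tfh, against 2.24, 2.26 and 2.50 in Venus-low Tfh, at least 9.42-fold higher (5.90 ± 0.40, adjusted p = 0.016). Mef2b, a transcription factor known from germinal centre B cells, was at 6.39, 7.74 and 8.94 in Venus-high Tfh, against 2.79, 2.64 and 3.30 in Venus-low Tfh. It was at least 6.46-fold higher (4.78 ± 0.44, adjusted p = 0.0233), again with no overlap. Klrb1a, a lectin-like receptor of the NKR-P1 family, lay at least 6.92-fold higher (5.02 ± 0.45, adjusted p = 0.0228), with Adamtsl2, a secreted matrix protein gene, at least 4.55-fold higher (5.02 ± 0.43, adjusted p = 0.0211). Fam71b rose by 4.95 ± 0.27, Ntf5, a neurotrophin gene, by 4.66 ± 0.44, and Acod1, the enzyme that makes itaconate, by 4.66 ± 0.80. Ndrg4 rose by 4.50 ± 0.27, with 3.80, 4.92 and 4.79 in the pairs.

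With S1pr3, described next, these are the 12 largest rises among genes that passed and moved, and the smallest of their differences in any pair was the 2.50 of Acod1 in pair 3. Among rises of at least 3 units that passed, the smallest spreads over pairs were those of Slc1a4, a transporter of neutral amino acids, and Cbfa2t3, a transcriptional corepressor. Slc1a4 rose by 3.04, 3.24 and 3.23 in pairs 1, 2 and 3, and Cbfa2t3 by 3.31, 3.63 and 3.58. Cbfa2t3 was at 11.71 to 12.11 in Venus-high Tfh, at 8.40 to 8.51 in Venus-low Tfh and at 2.92 to 4.78 on the other 6 arrays.

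**Figure D1:**
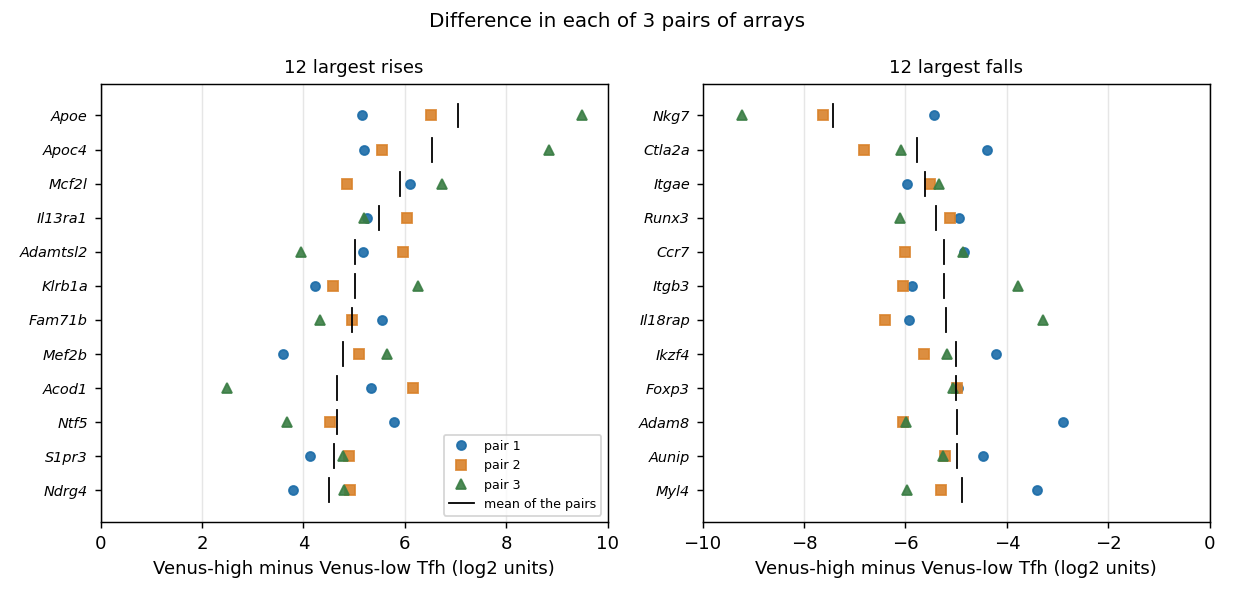
Venus-high minus Venus-low difference in log2 units (x axis) of the 12 genes with the largest mean rises (left) and the 12 with the largest mean falls (right) among genes that passed limma and moved in every pair. Each symbol is 1 pair of arrays and the black bar is the mean of the 3 pairs: the Foxp3 pairs lie within -4.96 to -5.07, while Nkg7 spans -5.44 to -9.23 and Apoe 5.16 to 9.49.

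Besides S1pr2 itself, 3 sphingosine-1-phosphate receptors were measured, of which S1pr3 rose and S1pr1 and S1pr4 fell. S1pr3, another receptor for the same lipid, was at 6.18, 7.05 and 10.26 in Venus-high Tfh, against 2.06, 2.14 and 5.47 in Venus-low Tfh. The lowest Venus-high array was above the highest Venus-low array, and S1pr3 rose by 4.61 ± 0.19 (adjusted p = 0.0148), with 4.13, 4.91 and 4.79 in the pairs. It was at or below 2.12 on the 6 arrays of the other groups. S1pr1, the egress receptor, was at 2.13, 2.75 and 2.62 in Venus-high Tfh, against 3.96, 6.34 and 5.74 in Venus-low Tfh, and fell by 2.85 ± 0.39 (adjusted p = 0.0338). Against the floor of log2 5 that is at least 1.27-fold lower, since the Venus-low arrays themselves lay near it. S1pr1 stood at 6.56 and 7.20 in PD1-intermediate cells, 9.37 and 9.61 in PD1-low cells and 8.51 and 9.70 in naive cells, so the Venus-high arrays were the lowest of the series. S1pr4, a receptor of the same family, fell by 0.73 ± 0.12 (adjusted p = 0.0469), and its arrays overlapped between the groups although each pair had the same sign.

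Downstream of these receptors, Gna13, the G protein subunit that S1PR2 uses to restrain migration, was at 13.64, 13.65 and 14.16 in Venus-high Tfh, against 12.95, 13.03 and 13.58 in Venus-low Tfh. It rose by 0.63 ± 0.09 (adjusted p = 0.0337), and the groups did not overlap. The other measured genes of that list differed by -0.14 to 0.44 and did not pass. They were the G protein subunits Gna12 and Gnai2, the effectors Arhgef1 and Rhoa, and Sphk2 and Sgpl1, enzymes that make and break down the lipid. S1pr5 and Sphk1 stayed at or below 2.36 and 2.48 on all 12 arrays.

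**Figure D2:**
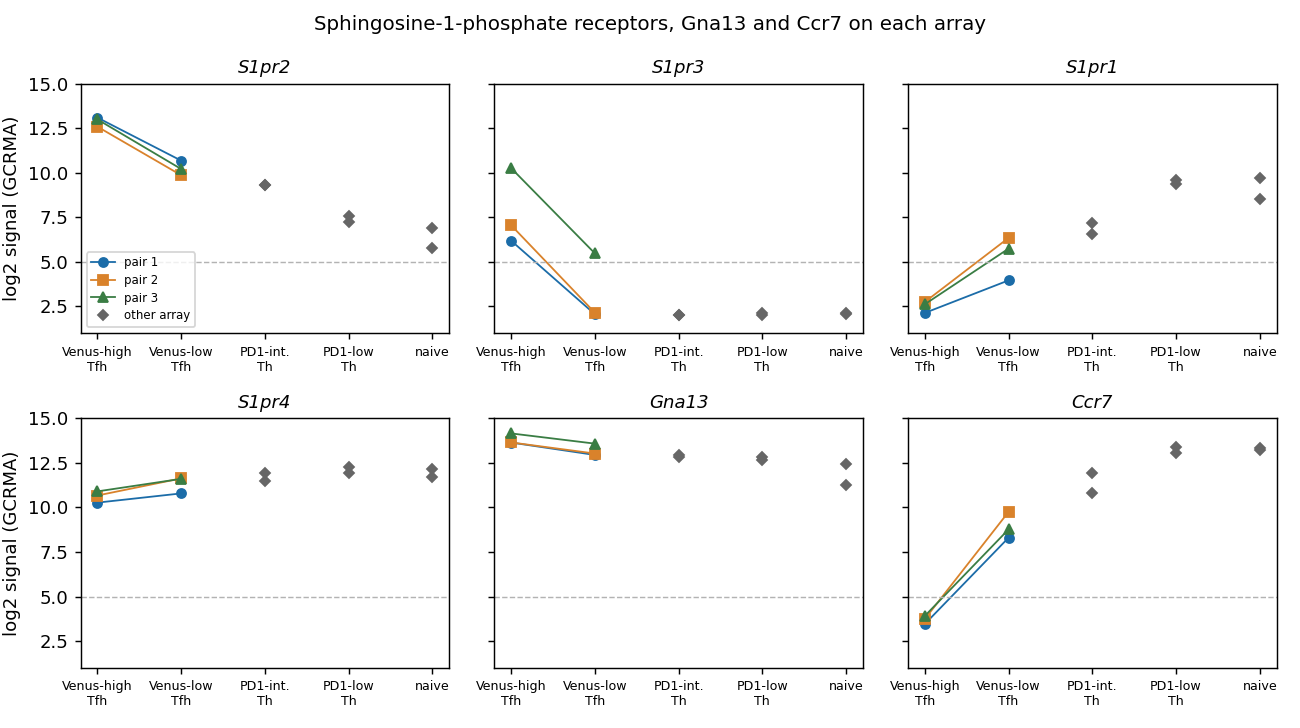
Level (log2 signal, y axis) of S1pr2, S1pr3, S1pr1, S1pr4, Gna13 and Ccr7 on each of the 12 arrays, by group (x axis). Lines join the Venus-high and Venus-low arrays of a pair, diamonds are the arrays of the other groups, and the dashed line marks log2 5: S1pr3 lies at 6.18 or more on the Venus-high arrays and at 5.47 or less elsewhere, while S1pr1 and Ccr7 lie below the dashed line on the Venus-high arrays.

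Receptors and integrins of T zone homing and egress were lower in Venus-high Tfh. Of 13 measured members of that list, 0 rose and 8 fell (61.5%, beside 6.05% of all genes tested). Of the 8, 4 fell by at least 1 log2 unit in every pair. The list median was -1.23, beside 0.02 for all genes. Ccr7, the chemokine receptor of T zone entry, was at 3.46, 3.74 and 3.91 in Venus-high Tfh, against 8.31, 9.76 and 8.77 in Venus-low Tfh. The groups did not overlap, and Ccr7 was at least 15.4-fold lower (difference -5.24 ± 0.29, adjusted p = 0.0154). Itgae, the αE integrin subunit (CD103) that binds E-cadherin, was at 2.31, 2.38 and 4.67 in Venus-high Tfh, against 8.29, 7.89 and 10.01 in Venus-low Tfh, at least 13.2-fold lower (-5.61 ± 0.16, adjusted p = 0.0148). Il7r, which encodes the interleukin 7 receptor that keeps resting T cells alive, fell by 3.27 ± 0.41 (adjusted p = 0.0309). Selplg, the ligand of P-selectin, fell by 1.28 ± 0.20 (adjusted p = 0.0428), and Gpr183, the oxysterol receptor EBI2, fell by 0.98 ± 0.12 (adjusted p = 0.0306). Klf2, the transcription factor that drives S1pr1, differed by -1.82, -4.99 and -2.81 in pairs 1, 2 and 3, and its mean of -3.21 ± 0.68 did not pass (adjusted p = 0.0669).

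The integrin list overlaps that of homing, and 4 of its 14 measured subunits fell (28.6%, beside 6.05% of all genes tested) while 0 rose. Besides Itgae and Itgb7, which pairs with it, these were Itgb3, the β3 subunit, and Itgb1, the β1 subunit. Itgb3 was at 2.33, 3.16 and 4.61 in Venus-high Tfh, against 8.20, 9.22 and 8.40 in Venus-low Tfh, at least 12.2-fold lower (-5.24 ± 0.53, adjusted p = 0.0247) with no overlap. Itgb7 fell by 1.05 ± 0.10 (adjusted p = 0.0237), and Itgb1 fell by 1.05 ± 0.14 (adjusted p = 0.0342). The arrays of Itgb1 overlapped between the groups. Actn1, which links integrins to actin, fell by 1.73, 1.76 and 1.83 in the 3 pairs, among the smallest spreads of all named genes.

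Other large falls were those of Ctla2a, Adam8 and Myl4. Ctla2a, an inhibitor of cathepsins, was at 3.21, 2.45 and 2.49 in Venus-high Tfh, against 7.60, 9.27 and 8.58 in Venus-low Tfh, at least 11.2-fold lower (-5.77 ± 0.52, adjusted p = 0.0228). Adam8, a membrane metalloprotease, lay at least 5.45-fold lower (-4.98 ± 0.75, adjusted p = 0.0395), and its pair 1 difference of -2.88 was smaller than the -6.05 and -5.99 of pairs 2 and 3. Myl4, a myosin light chain gene next to Itgb3, was at least 11.7-fold lower (-4.89 ± 0.56, adjusted p = 0.0272). None of the 3 overlapped between the groups. Of the 349 genes moved lower, 68 were below log2 5 on all 3 Venus-high arrays. Among moved genes with the widest spread over pairs, Mt1, a metallothionein gene, differed by -4.76 ± 0.93 (adjusted p = 0.0591) and Igfbp7 by -4.06 ± 0.91 (adjusted p = 0.0748), and neither passed.

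Genes of follicle positioning and of guidance went both ways. In the follicle list without S1pr2, the gene of the sort, 2 of 14 measured genes rose (Plxnd1 and Rgs16) and 4 fell (Ccr6, Cxcr3, Rgs1 and Ptger4). These were 14.3% and 28.6% of that list, beside 4.06% and 6.05% of all genes tested. Ccr6, the receptor of CCL20, was at 7.37, 7.48 and 8.86 in Venus-high Tfh, against 11.45, 11.44 and 12.14 in Venus-low Tfh. The groups were apart by more than the spread within either, and Ccr6 fell by 3.77 ± 0.20 (adjusted p = 0.0154). Cxcr3, a chemokine receptor of Th1 cells, fell by 1.36 ± 0.22 (adjusted p = 0.0448), and Cxcr4 differed by 0.35 without passing. Rgs16, a regulator that ends G protein signalling, was at 10.98, 11.08 and 10.37 in Venus-high Tfh, against 9.12, 8.72 and 8.82 in Venus-low Tfh, and rose by 1.92 ± 0.19 (adjusted p = 0.0244). Of the 8 measured genes listed for that family, 2 rose (25%, beside 4.06% of all genes tested) and 1 fell (12.5%, beside 6.05%). Besides Rgs16, Rgs3 rose by 0.97 ± 0.10 (adjusted p = 0.0247), while Rgs1 fell by 0.60 ± 0.09 (adjusted p = 0.04). Rgs8, a member of the family outside that list, was at least 2.38-fold higher (3.30 ± 0.24, adjusted p = 0.0169).

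Of 14 measured ephrin, semaphorin and plexin genes, 2 rose and 2 fell, 14.3% each way beside 4.06% and 6.05% of all genes tested. Plxnd1, a semaphorin receptor, was at 6.66, 8.39 and 8.88 in Venus-high Tfh, against 4.03, 4.88 and 6.22 in Venus-low Tfh. All Venus-high arrays were above all Venus-low arrays, and Plxnd1 rose by 2.93 ± 0.22 (adjusted p = 0.0176). Plxnb1, the receptor of semaphorin 4D, was at least 2.35-fold higher (2.48 ± 0.41, adjusted p = 0.0458). Sema4a was at 5.62, 6.49 and 5.11 in Venus-high Tfh, against 9.32, 9.90 and 8.35 in Venus-low Tfh, and fell by 3.45 ± 0.13 (adjusted p = 0.0148). Its pairs, at -3.71, -3.41 and -3.24, had one of the smallest spreads among changes of this size.

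The regulatory T cell list had 18 measured genes. Of these 7 fell (38.9%, beside 6.05% of all genes tested) and 3 rose (16.7%, beside 4.06%). Foxp3, the transcription factor that defines the lineage, was at 6.19, 5.73 and 6.07 in Venus-high Tfh, against 11.16, 10.71 and 11.13 in Venus-low Tfh. The groups did not overlap, and Foxp3 fell by 5.003 ± 0.08 (adjusted p = 0.00652), with pairs at -4.96, -4.98 and -5.07, the smallest SD over pairs among changes of at least 3 units. On the 6 arrays outside the Tfh gate Foxp3 was at 8.22 to 12.34, with naive cells at 10.14 and 8.22. Ikzf4, which encodes the Foxp3 partner Eos, was at 2.25, 3.61 and 4.47 in Venus-high Tfh, against 6.46, 9.25 and 9.65 in Venus-low Tfh, at least 10.9-fold lower (-5.01 ± 0.31, adjusted p = 0.0154). Gpr83, a G protein-coupled receptor known from these cells, fell by 3.99 ± 0.48 (adjusted p = 0.0291), Ebi3, the shared chain of interleukins 27 and 35, fell by 3.33 ± 0.36 (adjusted p = 0.026) and Tnfrsf1b, which encodes TNFR2, fell by 2.70 ± 0.29 (adjusted p = 0.0255). Tnfrsf9, the costimulator 4-1BB, and Tgfb1 completed the 7.

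Il2ra, the high-affinity chain of the interleukin 2 receptor, was at 3.65, 3.90 and 4.83 in Venus-high Tfh, against 6.26, 10.69 and 10.08 in Venus-low Tfh. The groups did not overlap, but the pairs ranged from -2.61 to -6.79 and the mean of -4.88 ± 0.88 did not pass (adjusted p = 0.0516). Other members lay close to 0: Ikzf2, which encodes Helios, differed by -0.01, Ctla4 by 0.17 and Izumo1r, which encodes the folate receptor FR4, by 0.08, and none of the 3 passed. The members that rose were Dusp4, a phosphatase of MAP kinases, by 1.83 ± 0.22 (adjusted p = 0.0284), Lrig1 by 0.75 ± 0.11 (adjusted p = 0.0355) and Nt5e, which encodes CD73, by 0.63 ± 0.09 (adjusted p = 0.0338).

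In the Th1 and cytotoxic list, 6 of 20 measured genes fell (30%, beside 6.05% of all genes tested) and 0 rose. Runx3, a regulator of cytotoxic T cells and of Th1 cells, was at 4.64, 4.88 and 4.63 in Venus-high Tfh, against 9.59, 10.00 and 10.73 in Venus-low Tfh, at least 34.5-fold lower (-5.39 ± 0.27, adjusted p = 0.0148). It was at 10.21 to 10.95 on the 6 arrays outside the Tfh gate, with naive cells at 10.92 and 10.66, so a high level was not particular to Venus-low Tfh. Nkg7, a gene of cytotoxic granules, was at 2.12, 2.13 and 1.80 in Venus-high Tfh, against 7.57, 9.76 and 11.02 in Venus-low Tfh. Both genes separated the groups without overlap, but the Nkg7 pairs ran from -5.44 in pair 1 to -9.23 in pair 3, among the 5 widest ranges of the genes that moved. Nkg7 was at least 21.8-fold lower (-7.43 ± 0.79, adjusted p = 0.0251). Il18rap, a chain of the interleukin 18 receptor, fell by 5.21 ± 0.70 (adjusted p = 0.0335), and Ccl5, a chemokine, was at least 3.56-fold lower (-3.93 ± 0.65, adjusted p = 0.0451). Hopx, a homeodomain cofactor, fell by 2.59 ± 0.24 (adjusted p = 0.0233), and Cxcr3 is the sixth. Eomes differed by -0.45, Ifng by 0.55 and Stat4 by 0.37, none of which passed.

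Of markers of CD8 T, NK and gamma delta T cells, which would come with other cells in the gate, 4 were measured. All 4 were lower in each pair, as were 27.6% of all genes tested, and 2 moved lower, as did 3.53%. In limma 1 of the 4 fell (25%, beside 6.05% of all genes tested). Klrd1, which encodes CD94, was at 2.03, 1.99 and 2.74 in Venus-high Tfh, against 3.66, 4.99 and 5.93 in Venus-low Tfh (-2.61 ± 0.36, adjusted p = 0.0342). Both group means lay below log2 5, so no fold is given, and with values raised to that floor the difference was -0.31 and did not pass (adjusted p = 0.454). On the naive CD4 arrays Klrd1 was at 9.45 and 9.73. The summed level of the 4 (log2 of the sum of their linear signals) was 4.41 to 5.16 in Venus-high Tfh, against 5.33 to 8.26 in Venus-low Tfh, and 2 of the 4 were below log2 5 on all 6 arrays. The defining markers Cd8a and Ncr1 stayed at or below 2.32 and 2.18 on all 6 Tfh arrays. The gamma delta markers Trdc and Tcrg-C1 had no probe set under these symbols. Trgv4, a gamma chain gene outside the list, was at 2.30, 1.98 and 2.41 in Venus-high Tfh, against 2.36, 4.30 and 7.52 in Venus-low Tfh.

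The Th17 list had 9 measured genes, of which 4 fell (44.4%, beside 6.05% of all genes tested) and 0 rose. They were Ccr6, Ahr, the aryl hydrocarbon receptor, and the adjacent membrane protein genes Tmem176a and Tmem176b. Ahr was at 4.79, 6.86 and 7.43 in Venus-high Tfh, against 8.18, 9.42 and 10.44 in Venus-low Tfh, without overlap, and fell by 2.99 ± 0.19 (adjusted p = 0.0154). Tmem176a fell by 2.27 ± 0.17 (adjusted p = 0.0176), and Tmem176b fell by 1.75 ± 0.18 (adjusted p = 0.0251). Rora, a transcription factor of the lineage, differed by -0.36 and did not pass, and Il17a stayed at or below 2.19 on all 12 arrays.

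Among genes of the interleukin 2, interleukin 7 and STAT5 response, 2 of 18 measured fell and 1 rose, 16.7% beside the 10.1% of all genes tested. Cish, a STAT5 target that inhibits cytokine signalling, was at 3.39, 2.72 and 4.72 in Venus-high Tfh, against 6.38, 8.35 and 8.42 in Venus-low Tfh, at least 6.57-fold lower (-4.11 ± 0.57, adjusted p = 0.0343). The groups did not overlap. The other fall was that of Il7r, given above, and the rise was that of Cdkn1a, the cyclin-dependent kinase inhibitor p21. Cdkn1a was at 8.66, 8.88 and 10.39 in Venus-high Tfh, against 6.47, 6.34 and 8.54 in Venus-low Tfh, and rose by 2.20 ± 0.16 (adjusted p = 0.0176). Prdm1, which encodes Blimp-1, a repressor of the Tfh programme, was lower in each pair, at -1.10, -2.80 and -3.40, and its mean of -2.43 ± 0.50 did not pass (adjusted p = 0.0635). Il2rb, Stat5a and Stat5b differed by -0.30 to -0.01, and none passed.

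Both groups lay in the Tfh gate. Of 28 measured genes of the Tfh programme 4 rose (14.3%, beside 4.06% of all genes tested) and 1 fell (3.57%, beside 6.05%), and the list median was 0.28. Ascl2, a transcription factor that starts the programme, was at 12.23, 11.91 and 12.68 in Venus-high Tfh, against 9.47, 7.83 and 10.58 in Venus-low Tfh. It did not overlap between the groups and rose by 2.98 ± 0.43 (adjusted p = 0.036), with levels of at most 2.95 on the 6 arrays of the other groups. Sostdc1, a secreted inhibitor of BMP and Wnt signals, was at 10.69, 11.67 and 12.65 in Venus-high Tfh, against 9.09, 9.12 and 10.66 in Venus-low Tfh, and rose by 2.05 ± 0.21 (adjusted p = 0.0251). The other 2 rises were Rgs16, given above, and Gpm6b, by 0.75 ± 0.11 (adjusted p = 0.0358), and Lef1, a factor of the early programme that naive cells also express, fell by 0.69 ± 0.09 (adjusted p = 0.034).

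The best known Tfh genes were not among the calls. Bcl6, the regulator of the lineage, was at 14.93, 14.79 and 14.75 in Venus-high Tfh, against 14.45, 13.82 and 14.28 in Venus-low Tfh. These arrays did not overlap, and the difference of 0.64 ± 0.14 did not pass (adjusted p = 0.0734). Maf differed by 0.34 ± 0.09 (adjusted p = 0.104), and the helper cytokines Il4 and Il21 by 0.50 ± 0.14 (adjusted p = 0.106) and 0.29 ± 0.16 (adjusted p = 0.284). All 4 were higher in Venus-high Tfh in each of the 3 pairs.

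Cell cycle genes were lower in Venus-high Tfh. In the DNA replication list 22 of 29 measured genes fell (75.9%, beside 6.05% of all genes tested) and 0 rose. Of the 22, 17 fell by at least 1 log2 unit in every pair, and the list median was -1.47. In the mitosis list 19 of 27 fell (70.4%) and 0 rose. In that list 26 were lower by at least 1 unit in every pair, with a median of -2.12. Of those 26, 7 did not pass the test, and adjusted p over the whole mitosis list ran from 0.0148 to 0.0807. Top2a, one of the 19, was measured by a displaced probe set. All Venus-high arrays lay below all Venus-low arrays for 24 replication genes and 19 mitosis genes, while 5.43% of all genes tested did so.

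Among the genes of replication, Gins2, a subunit of the replicative helicase, was at 4.30, 7.24 and 7.37 in Venus-high Tfh, against 8.99, 10.37 and 10.86 in Venus-low Tfh. It fell by 3.77 ± 0.35 (adjusted p = 0.0233), the largest fall of its list. Cdc45, another helicase subunit, fell by 3.42 ± 0.23 (adjusted p = 0.0154), and Tk1, thymidine kinase, fell by 3.22 ± 0.48 (adjusted p = 0.0391). Cdc6, which loads the helicase at origins, was at 6.44, 7.97 and 7.84 in Venus-high Tfh, against 10.20, 10.49 and 11.29 in Venus-low Tfh, and fell by 3.24 ± 0.28 (adjusted p = 0.0212). Rfc3, a subunit of the clamp loader, was at 7.16, 8.27 and 8.91 in Venus-high Tfh, against 9.33, 9.74 and 10.68 in Venus-low Tfh, and fell by 1.80 ± 0.17 (adjusted p = 0.0233). Pcna, the sliding clamp, fell by 1.08, 1.02 and 1.03 in the 3 pairs. None of these named genes overlapped between the groups. Lig1, Mcm6 and Ccne2 stood at the other end of the list, at -0.42, -0.33 and -0.46, and did not pass.

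Among the genes of mitosis, Cdk1, the mitotic kinase, was at 8.72, 9.74 and 9.85 in Venus-high Tfh, against 11.24, 11.30 and 12.37 in Venus-low Tfh, and fell by 2.19 ± 0.24 (adjusted p = 0.026). Ccnb2, cyclin B2, was at 9.96, 10.35 and 10.39 in Venus-high Tfh, against 12.37, 11.93 and 12.76 in Venus-low Tfh, and fell by 2.12 ± 0.21 (adjusted p = 0.0245). Ube2c, which marks mitotic proteins for breakdown, was at 6.98, 8.93 and 9.99 in Venus-high Tfh, against 9.78, 11.31 and 12.41 in Venus-low Tfh. It fell by 2.53 ± 0.13 (adjusted p = 0.0148), with pairs at -2.80, -2.39 and -2.42, although its arrays overlapped between the groups across the array sets. Plk1, the polo-like kinase, fell by 2.87 ± 0.30 (adjusted p = 0.0251), Kif11, a spindle motor, fell by 2.86 ± 0.45 (adjusted p = 0.0431) and Aurka, Aurora kinase A, fell by 2.57 ± 0.44 (adjusted p = 0.0486). Mki67, which encodes the proliferation marker Ki-67, was the member that did not reach 1 unit in every pair, at -1.22, -0.62 and -1.49 (adjusted p = 0.0519). Cenph, a kinetochore gene outside both lists, fell by 3.14 ± 0.13 (adjusted p = 0.0148). Aunip, which binds Aurora kinase A, was at least 6.83-fold lower (-4.98 ± 0.20, adjusted p = 0.0148).

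The size of these falls varied by pair. Pair 2 had the smallest difference for 23 of the 29 replication genes and 26 of the 27 mitosis genes. Without pair 2, 20 replication genes and 27 mitosis genes were lower by at least 1 unit in both other pairs. All 3 Venus-high arrays exceeded both naive arrays for 21 replication genes and 26 mitosis genes. Cdk1, for example, was at 3.04 and 3.02 on the naive arrays and at 10.23 and 9.18 in PD1-intermediate cells. The share of all genes tested with Venus-high above naive was not counted. Naive cells came from spleen and no naive array was in the set of pair 3, so these counts only describe levels.

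**Figure D3:**
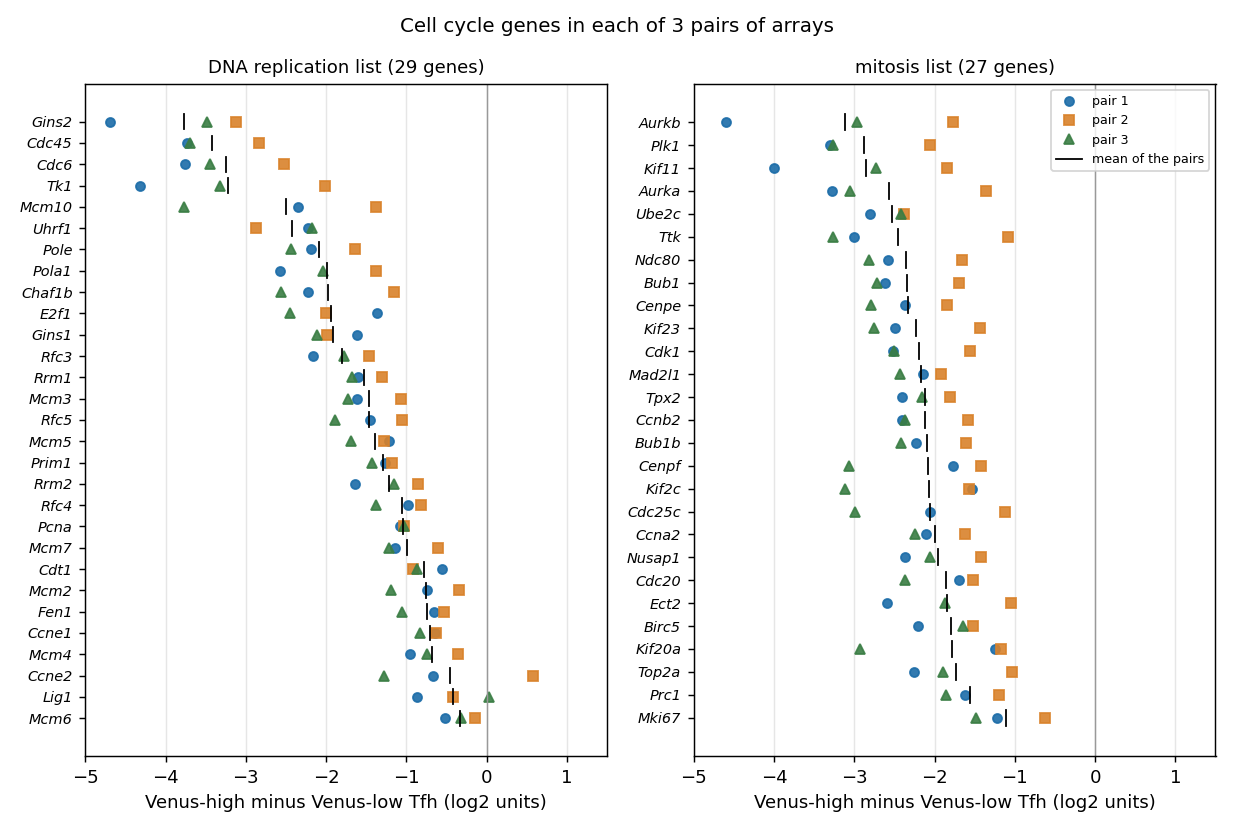
Venus-high minus Venus-low difference in log2 units (x axis) of every measured gene of the DNA replication list (29 genes, left) and the mitosis list (27 genes, right), ordered by the mean of the pairs (black bar). Each symbol is 1 pair of arrays: all 27 mitosis genes lie below 0 in every pair, and the pair 2 squares lie closest to 0 for 26 of them.

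The sequences upstream of these genes are shown because the genes moved together. E2F factors are known to act at replication genes, and complexes that bind the CHR element and CCAAT boxes are known to act at mitosis genes. In the RefSeq promoter windows of build GRCm38.p6, the 250 bases before each start were searched on both strands for TTTNNCGC (E2F-type), TTTGAA (CHR) and CCAAT. The E2F-type letters were in 8 of 29 windows of the DNA replication list (27.6%), in 7.23% of the windows of all tested genes and in 4.28% of all 32851 windows. TTTGAA was in 11 of 24 windows of the mitosis list (45.8%), in 10.5% of the windows of tested genes and in 15.99% of all windows. CCAAT was in 19 of the same 24 windows (79.2%), in 35.7% of those of tested genes and in 33.8% of all windows. The E2F-type letters were in 4.17% of mitosis windows, and TTTGAA in 10.3% of replication windows, while CCAAT was in 16 of the 29 replication windows (55.2%), also a larger share than in tested genes. A match is a description of these letters and not of a bound site. The windows of 5 genes whose values are given above are printed 5′ to 3′ in the direction of the gene, with every match to the 3 motifs in capitals. These 5 are examples with a match and are not typical of their lists. Most replication windows lack the E2F-type letters, and most mitosis windows lack TTTGAA.

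In Cdc6 (chr11:98907901-98908150, plus strand) and Rfc3 (chr5:151651209-151651458, minus strand) the capitals mark 1 E2F-type match each, and in Rfc3 also a CCAAT match, read as ATTGG. In Cdk1 (chr10:69352913-69353162, minus strand), Ccnb2 (chr9:70421555-70421804, minus strand) and Ube2c (chr2:164769679-164769928, plus strand) they mark TTTGAA and CCAAT on either strand, so that they also read as TTCAAA and ATTGG. In Cdk1 they also mark 2 E2F-type matches, and Cdk1 has the 1 window of the mitosis list that holds these letters. In Ube2c a CCAAT and an ATTGG overlap in 1 run of capitals.
Cdc6: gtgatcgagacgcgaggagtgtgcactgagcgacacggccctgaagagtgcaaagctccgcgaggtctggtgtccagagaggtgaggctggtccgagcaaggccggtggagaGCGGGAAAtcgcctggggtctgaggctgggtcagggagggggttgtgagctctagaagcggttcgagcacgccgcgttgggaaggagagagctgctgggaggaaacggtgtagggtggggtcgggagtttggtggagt
Rfc3: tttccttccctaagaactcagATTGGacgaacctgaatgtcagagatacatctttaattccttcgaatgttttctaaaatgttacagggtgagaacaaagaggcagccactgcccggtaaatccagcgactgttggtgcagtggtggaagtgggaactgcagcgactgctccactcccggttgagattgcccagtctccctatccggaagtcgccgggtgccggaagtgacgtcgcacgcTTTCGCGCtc
Cdk1: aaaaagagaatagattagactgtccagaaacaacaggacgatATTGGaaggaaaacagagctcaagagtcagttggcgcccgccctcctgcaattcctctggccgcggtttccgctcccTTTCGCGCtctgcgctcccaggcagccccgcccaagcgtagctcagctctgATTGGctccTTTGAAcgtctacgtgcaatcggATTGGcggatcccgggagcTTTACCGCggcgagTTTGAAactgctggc
Ccnb2: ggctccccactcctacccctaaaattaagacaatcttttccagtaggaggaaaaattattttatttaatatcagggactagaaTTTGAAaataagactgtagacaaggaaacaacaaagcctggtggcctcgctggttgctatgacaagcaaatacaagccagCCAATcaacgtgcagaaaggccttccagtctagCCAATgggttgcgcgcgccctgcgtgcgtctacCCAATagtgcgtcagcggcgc
Ube2c: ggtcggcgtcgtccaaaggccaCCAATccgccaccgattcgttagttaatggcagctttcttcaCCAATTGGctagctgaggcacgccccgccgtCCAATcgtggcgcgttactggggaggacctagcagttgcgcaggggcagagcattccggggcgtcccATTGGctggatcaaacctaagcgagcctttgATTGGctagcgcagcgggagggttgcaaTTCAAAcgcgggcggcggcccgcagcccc

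The CHR match of Ube2c lies close to the gene's start and 1 of the 2 CHR matches of Cdk1 does too, while that of Ccnb2 lies farther upstream. Each of these 3 windows holds at least 3 CCAAT matches.

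Of 15 measured glycolysis genes, 2 fell (13.3%, beside 6.05% of all genes tested) and 0 rose, and the list median was 0.10. Hk2, hexokinase 2, fell by 1.75 ± 0.29 (adjusted p = 0.0452), and Slc2a3, the glucose transporter GLUT3, fell by 1.61 ± 0.14 (adjusted p = 0.0211). Both overlapped between the groups across the array sets while falling in every pair. Of 20 respiratory chain genes, 0 passed in limma, and the closest were Uqcrfs1 at -0.49 ± 0.10 (adjusted p = 0.0616) and Cycs, cytochrome c, at -0.64 ± 0.14 (adjusted p = 0.0696). In the type I interferon response list 1 of 18 measured genes passed (5.56%, beside 10.1% of all genes tested). It was Bst2, which fell by 0.78 ± 0.10 (adjusted p = 0.0331).

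Of 25 measured early genes of T cell receptor signalling, 2 rose and 0 fell, 8% beside the 10.1% of all genes tested. The 2 were Dusp4, given above, and Dusp6, another MAP kinase phosphatase, which rose by 0.52 ± 0.09 (adjusted p = 0.0443). Nr4a1, Egr2 and Nfatc1, immediate targets of the receptor, differed by -0.45, 0.35 and -0.04 without passing. Among inhibitory receptors, 1 of 12 measured passed (8.33%, beside 10.1% of all genes tested). Lag3 was at 12.24, 12.10 and 12.93 in Venus-high Tfh, against 11.12, 10.44 and 12.10 in Venus-low Tfh, and rose by 1.20 ± 0.19 (adjusted p = 0.044). The lowest Venus-high and the highest Venus-low array of Lag3 were both at 12.10, so the groups only just failed to overlap. Among genes of naive and quiescent T cells, 5 of 22 measured fell (22.7%, beside 6.05% of all genes tested) and 0 rose. Ccr7, Il7r, Actn1 and Lef1 were joined by Satb1, a chromatin organizer, which fell by 1.18 ± 0.10 (adjusted p = 0.0214).

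In cholesterol handling, apart from Apoe and Apoc4, 3 of 12 measured genes passed (25%, beside 10.1% of all genes tested). Idi1, an enzyme of isoprenoid synthesis, fell by 1.72 ± 0.17 (adjusted p = 0.0243), and Lrp8, a receptor of apolipoprotein E, fell by 1.00 ± 0.14 (adjusted p = 0.0355). Mylip, a ligase that removes lipoprotein receptors, rose by 0.70 ± 0.09 (adjusted p = 0.0319). The transporters Abca1 and Abcg1 and the regulators Srebf1 and Srebf2 differed by 0.18 to 0.44, and none of the 4 passed.

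**Figure D4:**
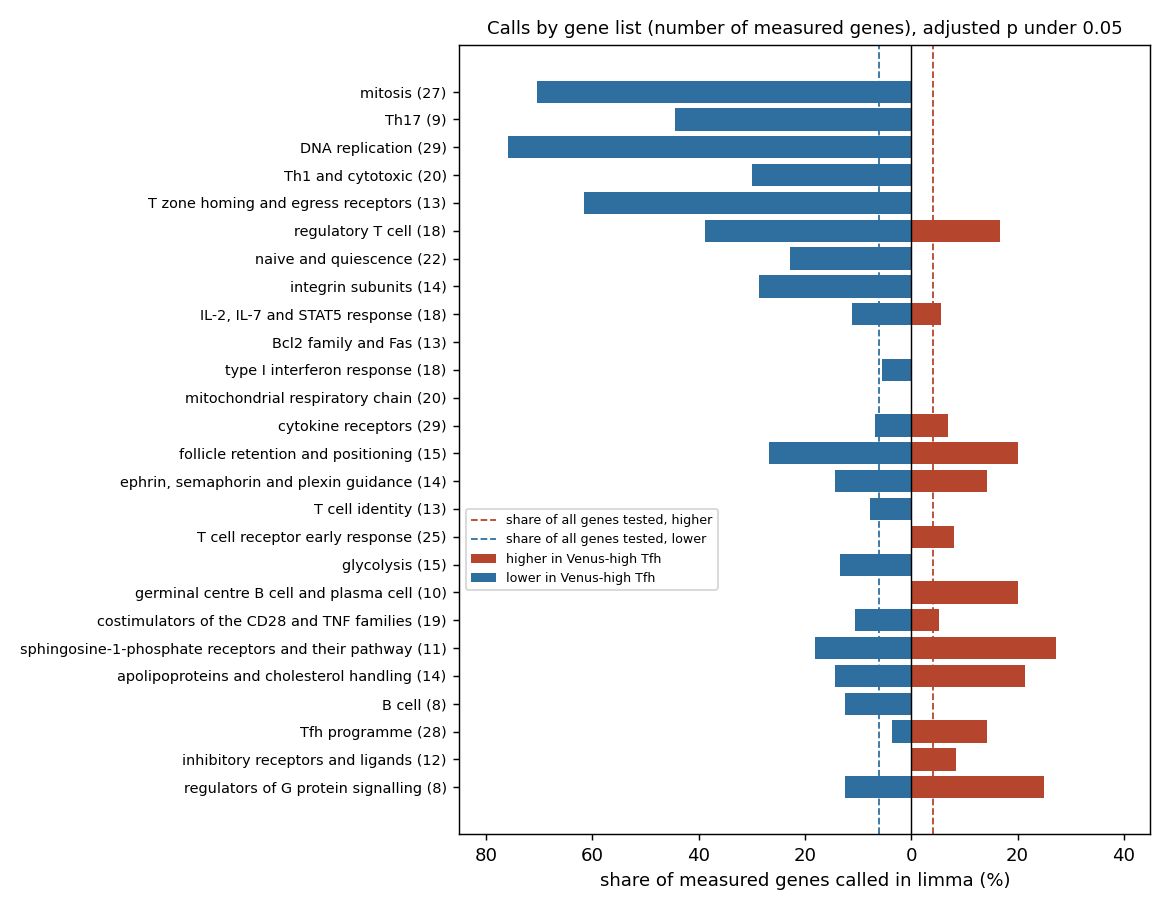
Share of the measured genes of each list (number in brackets) that passed limma at an adjusted p under 0.05, to the right for genes higher and to the left for genes lower in Venus-high Tfh (x axis, percent), with lists ordered by their median difference, the lowest at the top. Dashed lines mark the shares of all genes tested, 4.06% higher and 6.05% lower: the mitosis, DNA replication and T zone homing lists reach farthest to the left, with 0 genes to the right, and the follicle and sphingosine-1-phosphate lists include S1pr2, the gene of the sort.

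Markers of other cells bear on the rises of Mef2b and Apoe, which B cells and myeloid cells are known to express. Of the B cell list 8 genes were measured, 0 rose and 1 fell (12.5%, beside 6.05% of all genes tested). It was Cd74, the invariant chain, which fell by 2.22 ± 0.25 (adjusted p = 0.0272). The largest rise in that list, of 1.80, did not pass. The summed level of the 8 was 13.55 to 14.30 in Venus-high Tfh, against 13.04 to 13.66 in Venus-low Tfh, carried mainly by Ighm and Cd22. Ighm differed by 0.49 ± 0.14 (adjusted p = 0.111) and Cd22, an inhibitory B cell receptor, by 0.99 ± 0.21 (adjusted p = 0.0678), and both were higher in each pair. The defining markers Cd79a, Ms4a1 (CD20) and H2-Aa stayed at or below 2.55, 2.67 and 2.64 on the 6 Tfh arrays. Of the myeloid list 3 genes were measured, and 0 passed in limma. Their summed level was 9.18 to 9.36 in Venus-high Tfh, against 8.20 to 9.15 in Venus-low Tfh, and Cd68, which supplied most of it, differed by 0.61 ± 0.24 (adjusted p = 0.188). Lyz2, C1qa and Csf1r, which define macrophages, stayed at or below 2.39, 2.10 and 2.38. The part of other cells in these rises was not tested beyond these levels.

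The 3 pairs differed in how many genes went apart. Differences over 1 log2 unit were found for 10.1%, 13.1% and 11.1% of genes in pairs 1, 2 and 3. Some genes lay apart by at least 2 units the same way in 2 pairs and by less than 0.5 in the third. They were counted without displaced probe sets, a step that takes out genes shifted in the set of pair 2. The counts of the 3 pairs are therefore not on equal terms. There were 33 such genes for pair 1, 6 higher and 27 lower in the other pairs, against 2 for pair 2 and 4 for pair 3, and in all 33 both arrays of pair 1 lay below log2 5. They were picked after their values were seen. Gzmb, granzyme B, was at 2.05, 2.06 and 2.11 in Venus-high Tfh, against 2.06, 6.59 and 6.67 in Venus-low Tfh. Ccr2, a receptor of inflammatory chemokines, was at 4.49, 2.19 and 2.26 in Venus-high Tfh, against 4.49, 10.35 and 8.45 in Venus-low Tfh. Tbx21, which encodes T-bet, was at 2.18, 4.98 and 3.20 in Venus-high Tfh, against 2.21, 7.32 and 5.41 in Venus-low Tfh. Havcr2, which encodes TIM-3, and Il2 were of the same kind, and none of these 5 genes passed the test.

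**Figure D5:**
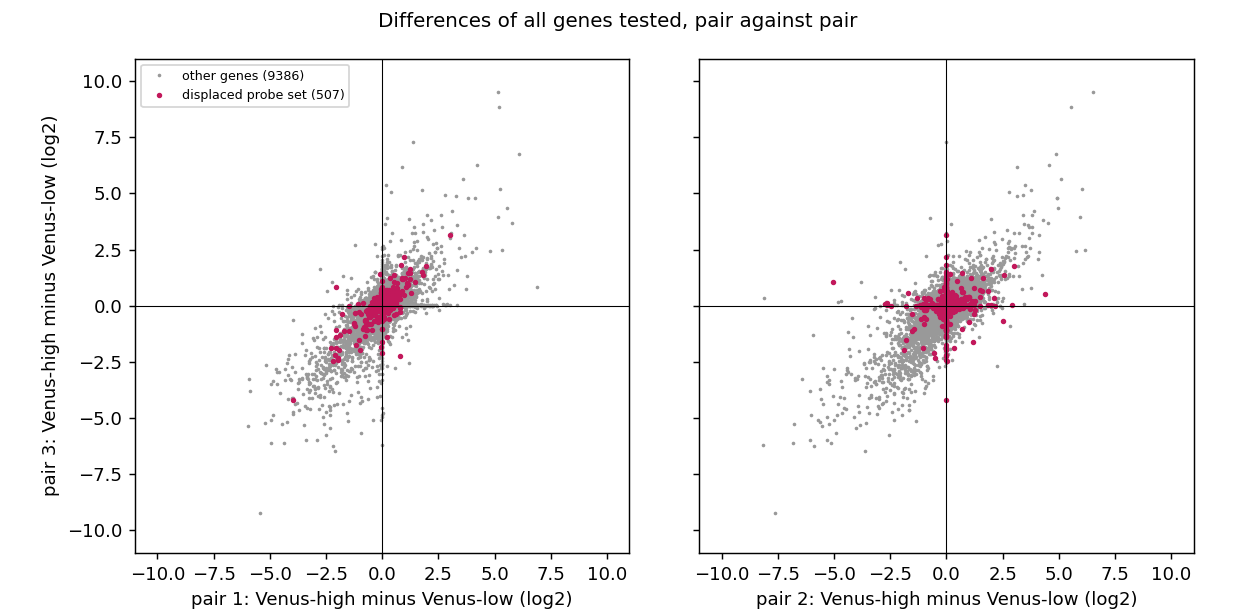
Venus-high minus Venus-low difference (log2 units) of all 9893 genes tested, in pair 3 (y axis) against pair 1 (x axis, left) and pair 2 (x axis, right). Dark red points are the 507 genes measured by displaced probe sets, and grey points the other 9386: the dark red points follow the grey ones on the left (r = 0.754) and gather along the axes on the right (r = 0.161).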

How the data were processed

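Sorted CD4 T cells gave 20 ng of total RNA per array, which was amplified and labelled with biotin, per the labels' protocols. The authors deposited log2 signals per probe set made with GCRMA, a background adjustment with quantile normalization, per the submitters' processing notes, and its version and the arrays normalized together are not given in the sources used here. Of 45101 probe sets, 34958 had 1 gene symbol, 932 several and 9211 none in the platform annotation. A probe set was kept at log2 5 or more on at least 2 of the 12 arrays, and the kept one with the highest mean stood for its gene.

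The 6 Tfh arrays entered limma 3.58.1 (R 4.3.3) with the replicate number as a block, leaving 2 residual degrees of freedom, with 2-sided moderated tests and Benjamini-Hochberg adjustment over 9893 genes at 0.05. Deviations from the group means had correlations over genes, between equal numbers, of 0.914, 0.945 and 0.915. Without displaced probe sets these were 0.879, 0.732 and 0.855. Each pair is also 1 array set, so these correlations cannot tell a pairing of the samples from a shared set. An exact sign-flip test of 3 pairs cannot go below p = 0.25. The number of arrays limits the precision. The fit was tested on simulated data drawn from its own variance model, which does not check that model against these arrays. Scanner files were not analysed here.

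The members, lists and settings were chosen with earlier results of these data known. Named genes are the sort and marker genes, the 12 largest called and moved rises and falls without displaced probe sets, up to 4 called members of each list by size (or the 2 of smallest p), the 5 large changes with the smallest SD over pairs and the 5 moved genes with the widest range. A gene named outside this rule was picked with its values in view. Alternatives concerned the block, arrays, filter, probe set, normalization, floor, variance model and fold. Promoter windows are RefSeq's (GRCm38.p6), with 1 or more for 8095 of the tested genes. Figures were drawn with matplotlib 3.10.9 in Python 3.11.15.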

Additional observations from a re-analysis of the deposited data

How the results depend on the processing

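The 1001 genes called with the replicate block became 4 on the 6 arrays without it, and with all 12 arrays 130 without a set term and 1671 with the array set as a term. With the pair as a random block limma called 1952 (correlation 0.922), and with trend and robust variance 1905. With no filter on low values 16 were called among 18194 genes, with values under log2 5 raised to that level 323, and with a change of at least 1 log2 unit required 583. Leaving out a pair, which leaves 1 residual degree of freedom, gave 0 to 63 calls. The other settings (filter at log2 6, mean of probe sets, quantile normalization, median centring, no displaced probe sets) gave 1091 to 1193 calls. The 511 genes moved in every pair became 1151 at a minimum of 0.5 log2 units and 145 at a minimum of 2, and 619 to 698 when 1 pair was left out, a setting chosen after seeing the data. Under the other settings they numbered 410 to 525.

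Of the 78 named genes that passed, 0 changed sign over 15 settings, which was largely fixed in advance. All had the same sign in every pair, so leaving out a pair could not change it. Settings of the block and of the variance model leave the mean difference as it is. The calls of these genes did depend on the setting. Of the 78, 75 lost the call with no filter or without the block and 57 without replicate 1. All 78 lost it without replicate 2 or 3, and 44 with the floor at log2 5. The cause was not tested. Limits are that 3 pairs carry every test, that array set and pair are the same, and that low signals have no detection calls, so bounds rest on a chosen floor. For 27 of the named genes that passed, 35 other kept probe sets that were not displaced could be compared, and 0 had the opposite mean sign.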

Other observations

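Some genes next to each other on a chromosome both moved, and whether neighbours did so more often than other genes was not tested. Of all genes tested, 1.64% moved higher and 3.53% moved lower. By the gene order of GRCm38.p6, 5371 pairs of adjacent measured genes were formed, and in 541 of them at least 1 gene moved in every pair of arrays. In 17 both moved the same way, 5 higher and 12 lower in Venus-high Tfh, and in 2 they moved in opposite ways. These genes were chosen after their values were seen. Rgs8 and Rgs16, regulators of G protein signalling, rose by 3.30 ± 0.24 and 1.92 ± 0.19 (limma, adjusted p = 0.0169 and 0.0244). Rgs8 was at 4.89, 6.03 and 7.83 in Venus-high Tfh, against 2.20, 2.33 and 4.31 in Venus-low Tfh, without overlap. Gnaq and Gna14, both subunits of the Gq class of G proteins, rose by 1.62 ± 0.17 and 2.40 ± 0.15 (adjusted p = 0.0252 and 0.0154). Gna14 was at 9.49, 10.41 and 11.55 in Venus-high Tfh, against 7.21, 8.23 and 8.81 in Venus-low Tfh, while Gnaq was measured by a displaced probe set. Il13ra1 stood beside Zcchc12, which rose by 3.65 ± 0.22 (adjusted p = 0.0154). Among the lower pairs were Itgb3 with Myl4, Tmem176a with Tmem176b, Ifitm1 with Ifitm2, and E2f7 with Csrp2. E2f7, a repressor of E2F targets, fell by 3.97 ± 0.37 (adjusted p = 0.0233).

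Of 19 measured costimulators 1 rose and 2 fell, 15.8% beside the 10.1% of all genes tested: Tnfrsf9 fell by 1.31 ± 0.09 (adjusted p = 0.0162), Tnfrsf4, which encodes OX40, fell by 0.61 ± 0.09 (adjusted p = 0.0368), and Tnfsf13b, which encodes BAFF, rose by 1.13 ± 0.18 (adjusted p = 0.0443) on a displaced probe set. Of 29 cytokine receptor genes 2 rose and 2 fell, 13.8% in all. Besides Il13ra1, Tgfbr2, the ligand-binding receptor of TGF-beta, rose by 0.57 ± 0.08 (adjusted p = 0.0367), at 13.39, 13.37 and 13.76 in Venus-high Tfh, against 12.80, 12.83 and 13.18 in Venus-low Tfh. In the Th2 list 1 of 6 measured genes passed (16.7%, beside 10.1% of all genes tested). It was Gfi1, a transcriptional repressor, which rose by 0.68 ± 0.10 (adjusted p = 0.0374). Of 13 genes of the Bcl2 family and Fas, 0 passed in limma, the closest being Bak1 at -0.59 ± 0.12 (adjusted p = 0.0616) and Casp8 at -0.45 ± 0.09 (adjusted p = 0.0647). The 5 measured killer cell lectin-like receptors went both ways. Klrb1a was higher (20%, beside 4.06% of all genes tested) and Klrd1 lower (20%, beside 6.05%), and Klrc1 at -2.91 and Klrg1 at -3.85 did not pass. Stromal and red cell markers were represented by Pecam1, at 0.10 ± 0.22 (adjusted p = 0.766).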
